A study of Mus musculus with 9 samples.

Results

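The genes described here lie on mouse chromosome 5 around Cd36, the gene that the study's knockout labels name. They were chosen by position and level alone: the midpoint of the gene lay within 10 Mb (megabases) of the midpoint of Cd36, the mean over the 9 libraries was at least 1 FPKM (read fragments scaled to gene length and library size), and Cd36 itself was left out. Of 376 genes in this stretch 68 met both conditions, 14 at lower and 54 at higher coordinates than Cd36. They are 50 protein-coding genes, 8 long noncoding RNAs and 10 pseudogenes, out of 12206 genes tested in the whole series. The mean level was thus a selected value and is given as a description: it ran from 1.06 FPKM for the noncoding RNA ENSMUSG00000120936 to 319 FPKM for the pseudogene Gm10221, with a median of 4.72. The other 308 genes had a mean under 1 FPKM, and 173 of them had 0 reads in all 9 libraries.

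Genes that lie close together on a chromosome are inherited together until recombination parts them. In a mouse line that carries a targeted allele, the flanking stretch therefore comes from the strain in which the allele was made, and it can differ from that of a control strain. Neighbouring genes can also share enhancers and promoters, and pairs that start head to head often share a single promoter region. No label gives the strain of the animals, so the part of strain in any difference below was not tested.

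Poly-A RNA from whole hearts of pups on postnatal day 1 was sequenced in 9 libraries, 3 from wild-type mice (WT), 3 labelled as a global knockout of Cd36 (CD36KO) and 3 labelled as a cardiac-specific knockout (CD36CKO). No label names the driver that removes Cd36 in the heart, the litter or the sex. The labels also do not say that replicates were separate animals, so the p-values measure a spread between libraries that could be technical. Each library held 14408631 to 20725356 reads in genes. Cd36, which encodes a fatty acid transporter of the cell surface, had 163, 150 and 125 FPKM in the 3 WT libraries. CD36KO held 72.4, 64.0 and 60.6, and CD36CKO held 201.0, 183 and 163. CD36KO was therefore at 45.0% of the WT mean and CD36CKO at 125%, so the level of Cd36 does not bear out the label CD36CKO. The libraries labelled CD36CKO overlapped WT, and their log2 difference of 0.32 did not pass in limma (adjusted p = 0.153). Every direction below that is drawn from those libraries rests on that label. The CD36KO libraries still held 3584 to 5440 reads of Cd36. Values per gene cannot show whether a part of Cd36 is missing, there or in the libraries labelled CD36CKO. Ddx3y, a Y-linked gene, was at 9.72 FPKM in CD36KO 3 and 6.19 in CD36CKO 3, and at 0.0820 or less in the other 7 libraries, and CD36CKO 3 also carried skeletal muscle transcripts, whose 14 genes summed to 3216 FPKM there. The 9 markers of atrial muscle gave sums of 4319 to 7031 FPKM in WT. The sums were 212 to 1446 in CD36KO and 717 to 2199 in CD36CKO, with no marker at 0. Mitochondrial genes took 6.02%, 4.55% and 8.89% of reads in WT 1, 2 and 3, and at least 10.3% in every other library. Markers of red blood cells summed to at least 5935 FPKM in each WT library, and to at most 5509 elsewhere. For epicardial markers these bounds were 37.6 and 27.7. Sums for cardiomyocytes, mural cells and macrophages overlapped between WT and each other group. Fibroblast sums were 310 to 408 FPKM in WT and lower, at 262 to 297, in CD36KO. With the label CD36CKO they were 220 to 438 and overlapped WT. Endothelial sums lay above WT for CD36KO and below it for the label CD36CKO. The part of these differences between libraries in the results below was not tested, except by the fits named beside a result. In whole hearts, fewer cells of a type and less RNA per cell cannot be told apart.

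With limma on log2(FPKM + 1) and an adjusted p under 0.05, 12 of the 68 members were higher in CD36KO than in WT and 6 lower, 18 in all or 26.5%, against 12.5% of all tested genes (5.81% higher and 6.7% lower). On the rest of chromosome 5, 74 of 712 tested genes passed, or 10.4%. The median log2 difference of the members was 0.07, and that of all tested genes -0.01. The 7 members with a WT mean under 1 FPKM entered through their level in the other groups. Of these, 5 are among the 12 called higher in CD36KO (Sema3c, Slc25a40, 2700038G22Rik, Gm9057 and Gm9836). Likewise 2 of the 6 called lower, AI506816 and Prkag2os1, were under 1 FPKM in CD36KO and entered through their WT level. The rule thus favours a difference in that direction for each of these genes. Such genes, under 1 FPKM in a compared group, made up 7 of the 18 calls among the members (38.9%) and 118 of 1527 calls over all genes (7.73%), so the counts of members and of all genes do not hold such genes in a like share. Among genes with a mean of at least 5 FPKM, the members past the threshold were 6 of 33, or 18.2%, close to the 15.7% of all genes at that level. The count also moved with single libraries, as did that of all genes. Without WT 1, 2 or 3 it was 10, 8 or 29 members, or 14.7%, 11.8% and 42.6%, where 6.0%, 6.63% and 26.2% of all genes passed. Without CD36KO 1, 2 or 3 it was 6, 9 or 7 members, or 8.82%, 13.2% and 10.3%, where 3.32%, 4.88% and 3.32% of all genes passed. With the atrial covariate, an alternative chosen after seeing the data, 0 members and 0 genes in all passed. The atrial markers summed higher in every WT library than in any other library. That fit therefore cannot tell atrial level and knockout label apart.

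By distance, 2 of the 5 members within 2.5 Mb of Cd36 passed in CD36KO, 3 of 18 between 2.5 and 5, and 13 of 45 between 5 and 10 Mb. Beyond the window, 11 of 114 genes at 10 to 20 Mb passed, or 9.65%, and 63 of 598 farther off, or 10.5%. In the libraries labelled CD36CKO the same bands held 1 of 5, 3 of 18, 10 of 45, 13 of 114 and 54 of 598 genes past the threshold. All 6 genes lower in CD36KO lay 5 to 10 Mb away, on the side of higher coordinates.

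**Figure D1:**
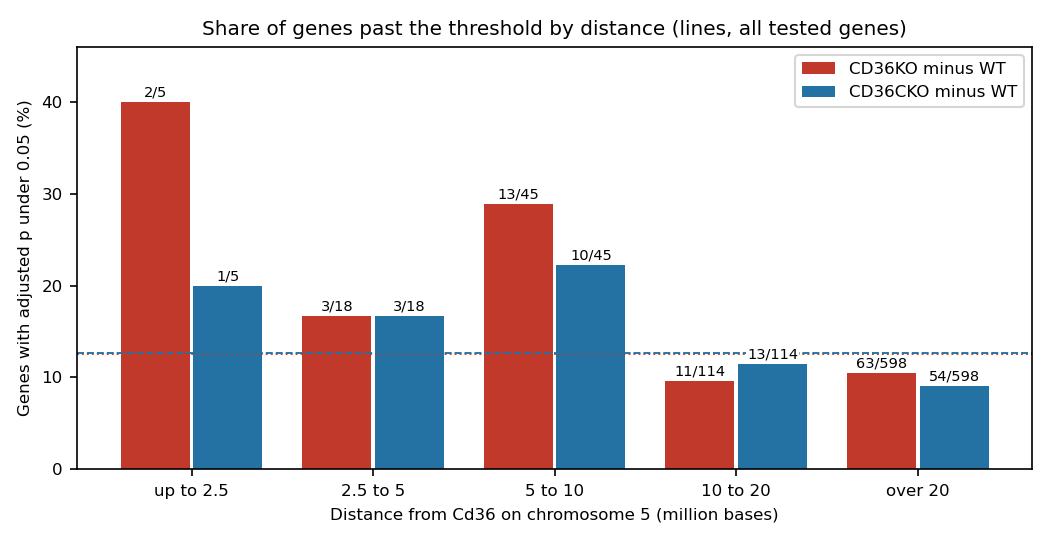
Share of genes on chromosome 5 past an adjusted p of 0.05 (vertical axis, percent) by distance from Cd36 in Mb (horizontal axis), for CD36KO against WT and for the libraries labelled CD36CKO against WT, with the number called and tested above each bar. The lines mark the share over all tested genes, and the 3 bands inside the window lie above them while the 2 outside lie below.

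**Figure D2:**
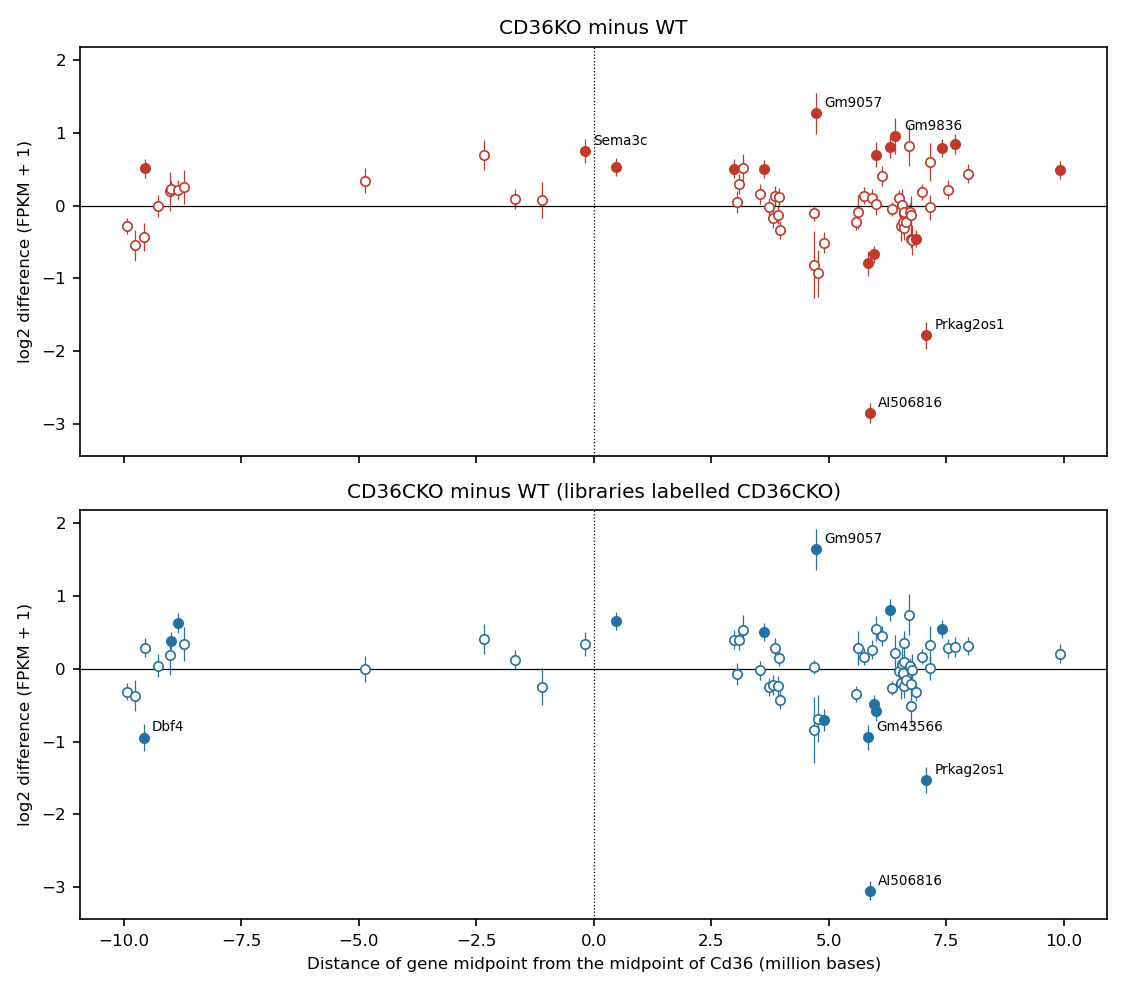
Log2 difference in FPKM + 1 (vertical axis, bars are the standard error) of the 68 members by distance from Cd36 in Mb (horizontal axis), with filled points for members past the threshold. AI506816 and Prkag2os1 lie lowest in both panels, and Gm9057 highest.

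AI506816, a long noncoding RNA (ENSMUSG00000105987, minus strand), lay 5.87 Mb from Cd36 and had the largest difference of the members on the log2(FPKM + 1) scale. WT libraries held 12.6, 14.4 and 13.0 FPKM, CD36KO libraries 1.13, 0.885 and 0.954, and those labelled CD36CKO 0.990, 0.424 and 0.815. The groups did not overlap: the lowest WT library held over 10-fold the FPKM of the highest library of either other group. The WT mean of 13.3 ± 0.962 FPKM (SD, n = 3) compared with 0.988 ± 0.124 in CD36KO and 0.743 ± 0.290 in the libraries labelled CD36CKO, or 7.42% and 5.58% of WT. AI506816 thus entered the members through its WT level, which favours a fall. It fell by 2.85 on the log2 scale in CD36KO (SE 0.13, 95% interval -3.15 to -2.55, adjusted p = 2.25e-05), and in the libraries labelled CD36CKO the log2 difference was -3.05 (SE 0.13, adjusted p = 1.17e-05). By p-value it ranked 1 among the 12206 tested genes in both comparisons, which share the WT libraries. The difference passed in 19 of 20 alternative fits in CD36KO and 20 of 20 in the libraries labelled CD36CKO. The exception was a fit with the atrial marker level as a covariate. There the log2 difference was -2.77 (SE 0.29) and limma gave an adjusted p of 0.0834. Since that fit cannot tell atrial level and knockout label apart, no conclusion is drawn from its difference.

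Prkag2os1, a noncoding RNA on the opposite strand within the AMP kinase subunit gene Prkag2 (ENSMUSG00000086446, plus strand), was the other member to fall by more than 1 on the log2 scale in both comparisons. Its mean was under 1 FPKM in CD36KO and in the libraries labelled CD36CKO. Prkag2os1 thus entered the members through its WT level, which favours a fall. It was at 3.90, 2.88 and 1.98 FPKM in WT, 0.0482, 0.129 and 0.176 in CD36KO, and 0.191, 0.344 and 0.483 with the label CD36CKO, again with no overlap with WT. Behind these values lay 165 reads in the 3 WT libraries, 6 in CD36KO and 20 in the libraries labelled CD36CKO. At the authors' library sizes CD36KO was at 3.82% of WT (95% interval 1.38% to 8.49%, counting error only) and the libraries labelled CD36CKO at 11.2% (6.64% to 17.8%). The log2 differences were -1.78 (SE 0.18, adjusted p = 0.00219) and -1.53 (SE 0.18, adjusted p = 0.00195). Both calls were lost in the limma fit with the atrial covariate. The differences there were -2.03 (SE 0.38, adjusted p = 0.478) in CD36KO and -1.70 (SE 0.30, adjusted p = 0.107) in the libraries labelled CD36CKO. No conclusion is drawn from them, since that fit cannot tell atrial level and knockout label apart. Prkag2 itself was at 20.8, 20.8 and 14.0 FPKM in WT and at 15.4 to 21.2 in the other 6 libraries, with log2 differences of -0.03 and 0.01 that did not pass. Whether the authors' counting used the strand is not given, so reads of Prkag2os1 and Prkag2 cannot be told apart.

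The first 300 bases around the start of AI506816 and Prkag2os1 are shown because these members fell most, and those of Sema3c and Gnai1 because they are the nearest protein-coding members on either side of Cd36. Each runs 5′ to 3′ on its gene's strand, from 250 bases before to 50 after the RefSeq start in GRCm38.p6: AI506816 at chr5:23712618-23712917 (minus), Prkag2os1 at chr5:24902319-24902618 (plus), Sema3c at chr5:17574566-17574865 (plus) and Gnai1 at chr5:18360364-18360663 (minus). Capitals mark, on either strand, the GC box with the letters GGGCGG. They also mark the box that is named after its own letters, CCAAT. The last motif searched and marked, known as the TATA box, has the letters TATAAA. None of these lies within another.
AI506816: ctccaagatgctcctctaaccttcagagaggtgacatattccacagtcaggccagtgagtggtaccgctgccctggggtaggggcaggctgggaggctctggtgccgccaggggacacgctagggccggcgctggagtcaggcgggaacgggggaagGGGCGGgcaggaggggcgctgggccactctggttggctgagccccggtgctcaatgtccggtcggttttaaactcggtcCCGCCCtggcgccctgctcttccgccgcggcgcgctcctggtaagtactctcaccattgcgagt
Prkag2os1: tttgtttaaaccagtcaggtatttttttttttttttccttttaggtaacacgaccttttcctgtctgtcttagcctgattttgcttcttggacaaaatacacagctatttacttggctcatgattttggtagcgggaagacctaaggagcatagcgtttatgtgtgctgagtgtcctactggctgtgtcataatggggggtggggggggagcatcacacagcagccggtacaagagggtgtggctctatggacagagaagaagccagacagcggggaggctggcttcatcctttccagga
Sema3c: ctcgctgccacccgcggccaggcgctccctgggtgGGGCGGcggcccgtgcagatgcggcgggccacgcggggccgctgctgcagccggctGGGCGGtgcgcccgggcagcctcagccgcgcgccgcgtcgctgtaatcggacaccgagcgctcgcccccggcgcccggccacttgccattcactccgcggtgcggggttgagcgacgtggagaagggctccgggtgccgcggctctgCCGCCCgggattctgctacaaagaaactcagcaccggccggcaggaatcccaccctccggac
Gnai1: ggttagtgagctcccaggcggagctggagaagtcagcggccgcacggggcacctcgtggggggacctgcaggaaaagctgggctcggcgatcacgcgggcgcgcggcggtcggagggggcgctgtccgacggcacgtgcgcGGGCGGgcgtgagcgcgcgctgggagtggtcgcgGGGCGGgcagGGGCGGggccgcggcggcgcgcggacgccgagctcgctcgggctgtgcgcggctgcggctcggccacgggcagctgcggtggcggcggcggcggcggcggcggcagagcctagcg
The window of AI506816 holds 2 GC boxes, those of Sema3c and Gnai1 hold 3 each, and that of Prkag2os1 holds none of the 3 motifs. GC content was 66.3%, 47.0%, 75.7% and 80.0% in the order printed. The median was 64.0% over the windows of the members and 52.7% over 32851 windows of the mouse genome. A GC box stood in 36 of 58 windows of 48 members with a RefSeq window, or 62.1%, and in 35.7% of all windows. A CCAAT box stood in 29.3% against 37.4% and TATAAA in 3.45% against 13.6%. The members were chosen for their level and the windows of the genome were not, so these are not shares of like sets. The letters describe these windows and say nothing of which factor binds there. The deposited positions are not those of GRCm38: of 67 members found in that build by identifier 0 had the same start, though all 67 lay in the same window.

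**Figure D3:**
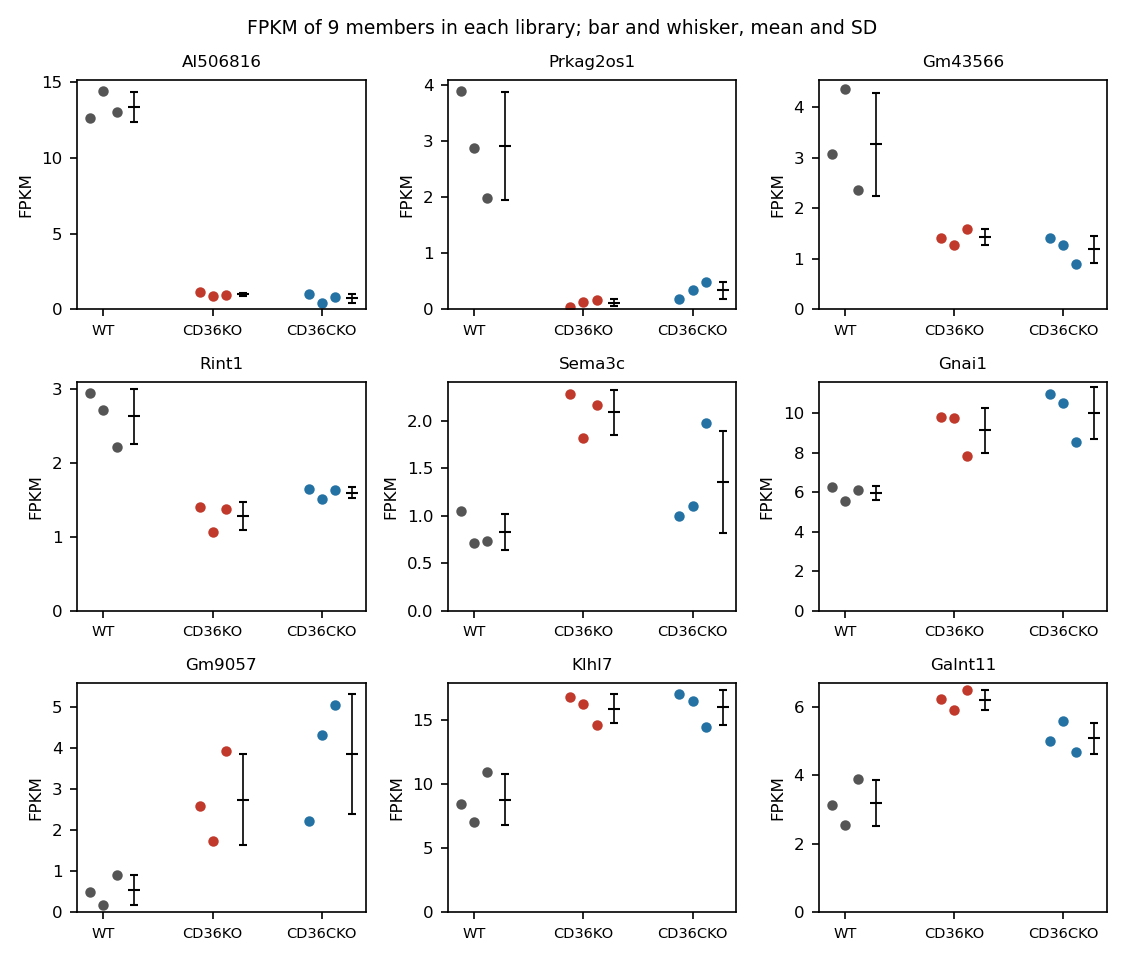
FPKM (vertical axis) of 9 members in each library of WT, CD36KO and CD36CKO, with points for libraries and bars for the mean and SD. AI506816, Prkag2os1, Gm43566 and Rint1 are higher in all 3 WT libraries than in the other 6, and Gnai1, Gm9057, Klhl7 and Galnt11 lower in all 3.

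The other noncoding RNAs did not all move one way. Gm43566 lies within Srpk2, a splicing-factor kinase gene, on the same strand, and 22749 bases from AI506816. Its level was 3.06, 4.36 and 2.36 FPKM in WT, 1.42, 1.27 and 1.58 in CD36KO, and 1.40, 1.27 and 0.888 where labelled CD36CKO, below every WT library. The log2 differences were -0.79 (adjusted p = 0.0210) and -0.94 (adjusted p = 0.0114), while Srpk2 was at 0.14 and 0.17 and passed in neither. The first call of Gm43566 was lost without WT 1 or any one of the CD36KO libraries (adjusted p up to 0.0700). Since both lie on the same strand, reads could be split between them and the value of Gm43566 is uncertain.

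1700096K18Rik was at 3.44, 2.65 and 3.0 FPKM in WT and 5.91, 7.72 and 5.24 in CD36KO, with no overlap, and rose by a log2 difference of 0.85 (SE 0.14, adjusted p = 0.00765). With the label CD36CKO it was at 3.61, 4.08 and 4.20 FPKM (0.30, adjusted p = 0.158). 2700038G22Rik rose in CD36KO from 0.502 ± 0.112 to 1.46 ± 0.423 FPKM (0.70, adjusted p = 0.0329), a call lost without WT 1, WT 2, CD36KO 1 or CD36KO 3 (adjusted p up to 0.118). In all, 2 of the 8 noncoding RNAs rose and 3 fell in CD36KO, or 62.5%, where 12.9% of 574 tested noncoding RNAs of the genome passed. With the label CD36CKO 3 of the 8 fell and none rose, against 11.7% of all noncoding RNAs past the threshold in either direction. AI506816 and Prkag2os1, which fell in both comparisons, were under 1 FPKM outside WT, and 2700038G22Rik was under it in WT. They entered the members through the groups where they were higher, which favours these calls. The share of such genes among all noncoding RNAs was not counted.

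Next to Cd36 on the side of lower coordinates lies Sema3c, which encodes a secreted class 3 semaphorin that guides axons and neural crest cells and is needed to divide the outflow tract of the heart. It was at 1.05, 0.713 and 0.733 FPKM in WT, 2.27, 1.81 and 2.17 in CD36KO, and 0.993, 1.10 and 1.97 with the label CD36CKO. CD36KO lay above all WT libraries, while those labelled CD36CKO overlapped WT. The rise was 0.75 in CD36KO (SE 0.16, adjusted p = 0.0212), and the difference in the libraries labelled CD36CKO was 0.35 (adjusted p = 0.176). Between both knockout labels the difference of 0.41 did not pass (adjusted p = 0.185). The call in CD36KO was lost without WT 2, CD36KO 1 or CD36KO 3 (adjusted p up to 0.0795). The WT mean of Sema3c was under 1 FPKM, so it entered through the other groups, which favours a rise.

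On the other side the nearest member is Gnai1, an inhibitory G protein alpha subunit that lowers cyclic AMP. Its level was 6.26, 5.56 and 6.10 FPKM in WT, 9.81, 9.76 and 7.83 in CD36KO, and 11.0, 10.5 and 8.53 with the label CD36CKO. All 6 lay above the WT libraries, with log2 differences of 0.53 (SE 0.12, adjusted p = 0.0260) and 0.65 (SE 0.12, adjusted p = 0.0132). The first call was lost without WT 1, WT 2, CD36KO 1 or CD36KO 2 (adjusted p up to 0.0986), and the second without CD36CKO 2 (adjusted p up to 0.0624).

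Gnat3, a taste-cell G protein subunit gene that lies closer still to Cd36, fell under the minimum: it had 3, 1 and 4 reads in CD36KO and 0 in the other 6 libraries. Of the other members nearest to Cd36, Cacna2d1, an auxiliary subunit of voltage-gated calcium channels, differed by 0.09 in CD36KO and 0.13 in the libraries labelled CD36CKO, and neither passed. The pseudogenes Gm8991 (0.08 and -0.25) and Gm10108 (0.34 and 0.00) and the noncoding RNA ENSMUSG00000120936 (0.70, adjusted p = 0.0570, and 0.41) did not pass either.

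About 3 Mb off, Phtf2, a membrane protein gene, and Tmem60 start head to head 67 bases apart. Phtf2 was at 7.98, 7.37 and 5.80 FPKM in WT and 11.6, 9.43 and 10.2 in CD36KO, with no overlap, and rose by 0.51 (adjusted p = 0.0317), a call lost without WT 2, CD36CKO 2 or any one of the CD36KO libraries (adjusted p up to 0.119). It was at 10.1, 9.67 and 8.93 in the libraries labelled CD36CKO (0.40, adjusted p = 0.0645). Tmem60 differed by 0.05 and -0.07 and passed in neither.

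The next members, Rsbn1l (0.30 and 0.40) and Ptpn12, a tyrosine phosphatase gene (0.52 and 0.54), did not pass. Fam185a rose in both, from 2.20 ± 0.256 FPKM in WT to 3.56 ± 0.263 in CD36KO and 3.58 ± 0.635 in the libraries labelled CD36CKO (both 0.51). Its call in CD36KO was lost without WT 2 or any one of the CD36KO libraries (adjusted p up to 0.0962). For the label CD36CKO it was lost without WT 2, CD36KO 3, CD36CKO 1 or CD36CKO 2 (adjusted p up to 0.122).

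In the other head-to-head pairs at most 1 gene passed. Dbf4 and Slc25a40 start 134 bases apart: in CD36KO Slc25a40 rose and Dbf4 was at -0.43 (adjusted p = 0.160), and in the libraries labelled CD36CKO Dbf4 fell and Slc25a40 was at 0.29 (adjusted p = 0.149). Neither Dnajc2 and Psmc2, nor Kmt2e and 5031425E22Rik, nor Cdk5 and Slc4a2 had a member past the threshold in either comparison.

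**Figure D4:**
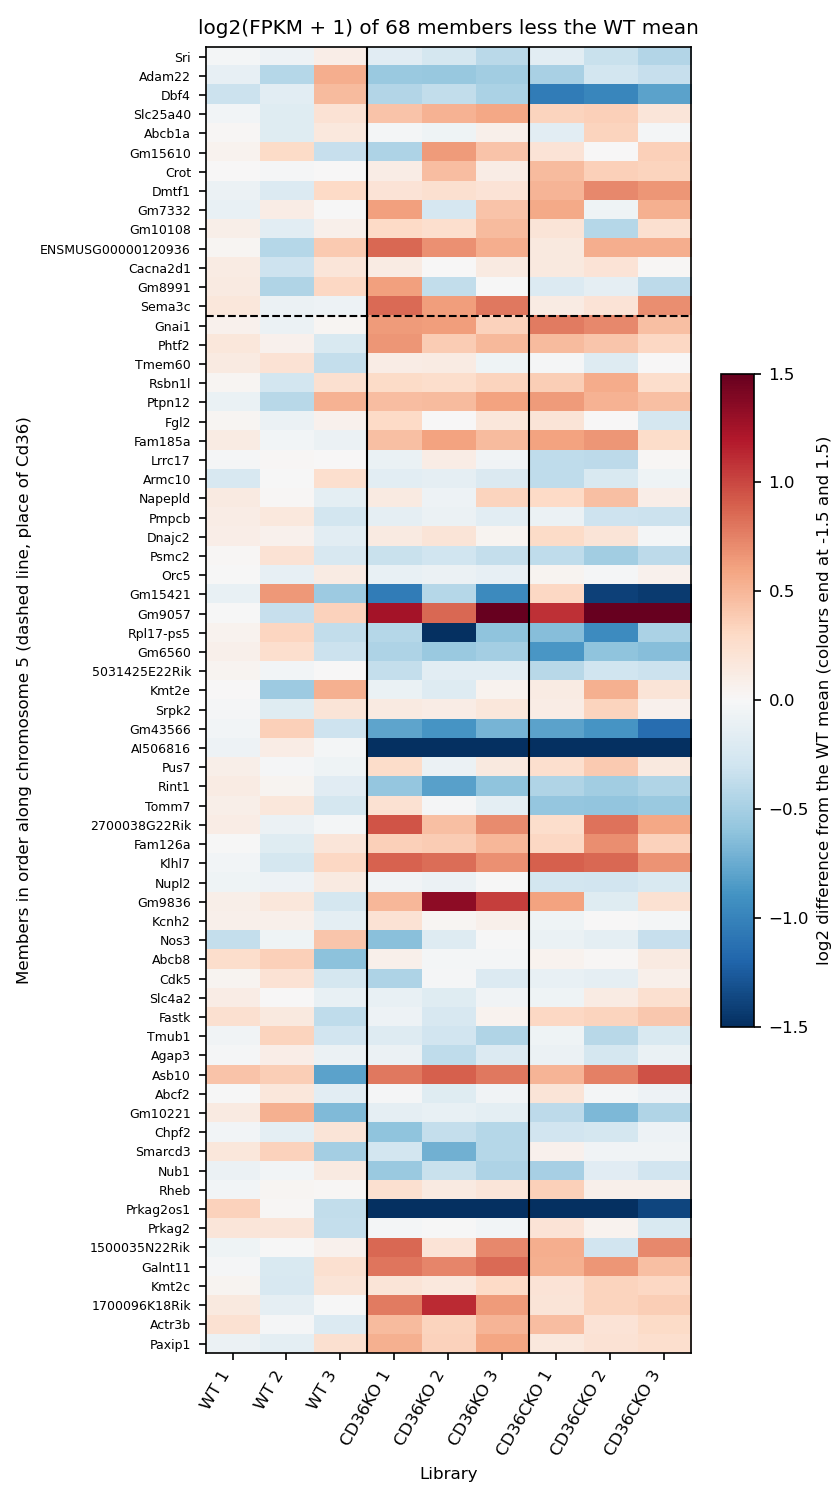
Log2(FPKM + 1) of the 68 members less the WT mean (colour, ending at -1.5 and 1.5) in each of the 9 libraries (columns), in order along chromosome 5 (rows), with a dashed line at the place of Cd36. The rows of AI506816 and Prkag2os1 are dark blue in all 6 libraries outside WT, and those of Klhl7, Gnai1 and Galnt11 are red in all 6.

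Of 12 signalling genes, Sema3c and Gnai1 rose in CD36KO and Gnai1 alone passed in the libraries labelled CD36CKO. These are 16.7% and 8.33% of the role, where 12.5% and 12.7% of all tested genes passed. Each role holds few genes, so 1 call moves its share. Nos3, the endothelial nitric oxide synthase gene, was at 15.1, 18.8 and 26.5 FPKM in WT, 12.3, 17.0 and 19.6 in CD36KO, and 18.2, 17.6 and 15.2 with the label CD36CKO, so all 3 groups overlapped (-0.28 and -0.20). Rheb, the small GTPase that activates mTORC1, differed by 0.19 and 0.17, and Cdk5, a kinase best known in neurons, by -0.23 and -0.06. None of these differences passed. Sema3a and Sema3d, other class 3 semaphorins of the stretch, had means of 0.706 and 0.930 FPKM and were not tested, and Hgf, the hepatocyte growth factor gene, had 0.0380.

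None of the 4 genes of ion and calcium handling passed in either comparison. Kcnh2, the channel that carries the rapid delayed rectifier current of the heart, was at 46.8, 47.0 and 40.0 FPKM in WT, 51.7, 45.5 and 47.1 in CD36KO, and 42.3, 44.8 and 43.6 with the label CD36CKO. Both knockout labels overlapped WT, while CD36KO lay above the libraries labelled CD36CKO, and the 95% intervals of the differences from WT were -0.14 to 0.35 and -0.27 to 0.22 on the log2 scale. Sri, the calcium-binding protein sorcin, lay just inside the window and differed by -0.28 (adjusted p = 0.132) and -0.31 (adjusted p = 0.0926).

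Of 8 genes of mitochondria, lipids and drug transport, 1 rose in CD36KO, or 12.5%, the same share as over all tested genes. In the libraries labelled CD36CKO 25.0% passed, against 12.7% of all tested genes. Slc25a40, a mitochondrial carrier that brings in glutathione, was at 0.915, 0.733 and 1.28 FPKM in WT and 1.65, 1.83 and 1.93 in CD36KO, above every WT library (0.51, adjusted p = 0.0336). The call was lost in 12 of 19 alternative fits, among them those without WT 1, WT 2, CD36CKO 2 or any one of the CD36KO libraries (adjusted p up to 0.117). With a WT mean under 1 FPKM, Slc25a40 entered through the other groups, which favours a rise.

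In the libraries labelled CD36CKO, Crot, which moves medium-chain acyl groups to carnitine in peroxisomes, rose and Tomm7, a small subunit of the import pore of the outer mitochondrial membrane, fell. Crot was at 5.17, 5.10 and 5.19 FPKM in WT and 7.57, 6.88 and 6.75 in the libraries labelled CD36CKO (0.39, adjusted p = 0.0493), a call lost in 14 of 20 alternative fits, among them those without WT 1, WT 2, CD36KO 1, CD36KO 3 or any one of the CD36CKO libraries (adjusted p up to 0.135). Crot overlaps the member Gm15610 on the opposite strand, so its value is uncertain. Tomm7 was at 57.8, 61.2 and 44.9 FPKM in WT, 63.7, 53.2 and 48.8 in CD36KO, and 36, 35.7 and 36.5 with the label CD36CKO. These last 3 lay below the other 6, and the log2 difference from WT was -0.57 (adjusted p = 0.0341), a call lost without WT 1, WT 2, CD36KO 2 or any one of the CD36CKO libraries (adjusted p up to 0.117). The transporters Abcb1a, which exports drugs (-0.01 and 0.05), and Abcb8 of the mitochondrial inner membrane (0.01 and 0.07) did not pass, nor did Pmpcb, a subunit of the mitochondrial processing peptidase (-0.12 and -0.24).

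Of 7 genes of chromatin and DNA replication, 14.3% passed in CD36KO and 28.6% in the libraries labelled CD36CKO. The shares of all tested genes were 12.5% and 12.7%. Paxip1, a partner of the Kmt2c and Kmt2d methyltransferases, rose in CD36KO. It was at 1.97, 1.85 and 2.74 FPKM in WT and 3.59, 3.03 and 3.77 in CD36KO, with no overlap (0.49, adjusted p = 0.0346), and the call was lost in 11 of 19 alternative fits, among them those without WT 1, WT 2, CD36CKO 2 or any one of the CD36KO libraries (adjusted p up to 0.122). It is the member just inside the window on its side.

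Dbf4, the activating subunit of the Cdc7 kinase that starts DNA replication, was at 1.75, 2.09 and 3.81 FPKM in WT, 1.54, 1.66 and 1.49 in CD36KO, and 0.671, 0.743 and 0.973 with the label CD36CKO. The last 3 lay below all others, and the log2 difference from WT was -0.94 (SE 0.19, adjusted p = 0.0161), a call lost without CD36CKO 1 or CD36CKO 2 (adjusted p up to 0.0659). With a mean under 1 FPKM in those libraries, Dbf4 entered through the other groups, which favours a fall. Dmtf1, a cyclin D-binding transcription factor gene, was at 1.14, 0.987 and 1.81 FPKM in WT and 2.26, 2.77 and 2.61 in the libraries labelled CD36CKO, which lay above WT (0.63, adjusted p = 0.0217); CD36KO was at 0.21 (adjusted p = 0.328). The call of Dmtf1 was lost without WT 1, WT 2, CD36CKO 2 or CD36CKO 3 (adjusted p up to 0.0904).

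Kmt2c, an enhancer methyltransferase (0.22 and 0.28), Kmt2e (-0.08 and 0.28), Smarcd3, a subunit of the BAF chromatin remodeller in heart muscle (-0.48 and -0.01), and Orc5, of the origin recognition complex (-0.11 and 0.03), passed in neither comparison.

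Of 10 genes of RNA and protein handling, Klhl7, a substrate adaptor of the cullin 3 ubiquitin ligase, rose in both. It was at 8.42, 7.03 and 10.9 FPKM in WT, 16.8, 16.2 and 14.6 in CD36KO, and 17.0, 16.5 and 14.4 with the label CD36CKO. All 6 lay above WT, with log2 differences of 0.80 (SE 0.15, adjusted p = 0.0116) and 0.81 (SE 0.15, adjusted p = 0.0111). They were lost without CD36KO 1 (adjusted p up to 0.0519), and without CD36CKO 2 (adjusted p up to 0.0536). Nub1, which targets NEDD8 for degradation, fell in CD36KO from 10.3 ± 0.916 to 7.24 ± 0.620 FPKM (-0.45, adjusted p = 0.0357), and was at -0.32 (adjusted p = 0.0944) in the libraries labelled CD36CKO. The call of Nub1 was lost without WT 1, WT 2 or any one of the CD36KO libraries (adjusted p up to 0.129). Abcf2, an ABC protein of translation, differed by -0.08 and 0.03.

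Of 5 genes of membranes, sugar chains and the cytoskeleton, 1 rose and 2 fell in CD36KO. Galnt11, which starts O-linked sugar chains, was at 3.12, 2.56 and 3.90 FPKM in WT, 6.23, 5.90 and 6.47 in CD36KO, and 5.0, 5.57 and 4.68 with the label CD36CKO. WT lay below the other 6 libraries, with log2 differences of 0.79 (SE 0.12, adjusted p = 0.00736) and 0.55 (SE 0.12, adjusted p = 0.0241), the second lost without WT 1, WT 2, CD36CKO 1 or CD36CKO 2 (adjusted p up to 0.104). Rint1, which acts in transport between the Golgi and the endoplasmic reticulum, was at 2.96, 2.73 and 2.22 FPKM in WT, 1.41, 1.07 and 1.37 in CD36KO, and 1.65, 1.52 and 1.64 with the label CD36CKO. WT lay above all others, with differences of -0.67 (SE 0.12, adjusted p = 0.0102) and -0.48 (SE 0.12, adjusted p = 0.0307). The second of these calls was lost without WT 1, WT 2, CD36KO 3 or any one of the CD36CKO libraries (adjusted p up to 0.114).

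Chpf2, an enzyme that extends chondroitin chains, fell in CD36KO from 3.70 ± 0.585 to 2.40 ± 0.298 FPKM (-0.46, adjusted p = 0.0388) and was at -0.21 in the libraries labelled CD36CKO. It overlaps Smarcd3 on the opposite strand, so its value is uncertain, and its call was lost in 11 of 19 alternative fits, among them those without WT 1, CD36CKO 1, CD36CKO 2 or any one of the CD36KO libraries (adjusted p up to 0.140).

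Pseudogenes share sequence with their parent genes, so their values are uncertain. Gm9057 was at 0.502, 0.189 and 0.920 FPKM in WT, 2.58, 1.73 and 3.93 in CD36KO, and 2.23, 4.32 and 5.05 with the label CD36CKO, with no overlap with WT. Only 9 reads in WT, 44 in CD36KO and 69 in the libraries labelled CD36CKO lay behind it. The ratios to WT were 5.13-fold (95% interval 2.47 to 12, counting error only) and 7.05-fold (3.51 to 16.1), and the log2 differences 1.27 (adjusted p = 0.0231) and 1.64 (adjusted p = 0.00936). The first call was lost without WT 1, WT 2, CD36KO 1 or CD36KO 3 (adjusted p up to 0.0849). Both Gm9057 and Gm9836 had a WT mean under 1 FPKM and entered through the other groups, which favours a rise.

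Gm9836 rose in CD36KO (0.96, adjusted p = 0.0375) on 10 reads in WT and 29 in CD36KO, a call lost in 10 of 19 alternative fits, among them those without WT 1, WT 2, WT 3, CD36KO 2, CD36KO 3 or CD36CKO 3 (adjusted p up to 0.118). Gm6560 fell in the libraries labelled CD36CKO from 6.97 ± 1.57 to 3.85 ± 0.480 FPKM (-0.70, adjusted p = 0.0188), a call lost without WT 1, WT 2, CD36CKO 1 or CD36CKO 2 (adjusted p up to 0.0578), and was at -0.51 (adjusted p = 0.0505) in CD36KO. The most abundant, Gm10221, was at 225 to 517 FPKM in WT and 224 to 331 elsewhere and did not pass (-0.13 and -0.51).

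In the libraries labelled CD36CKO, 7 members were higher and 7 lower than in WT, 14 of 68 or 20.6%, against 12.7% of all tested genes (5.36% higher and 7.32% lower) and 67 of 712 on the rest of chromosome 5, or 9.41%. Without WT 1, WT 2 or WT 3 the count was 8, 7 or 26 members, or 11.8%, 10.3% and 38.2%, where 6.55%, 4.79% and 32.4% of all genes passed. Without CD36CKO 1, 2 or 3 it was 8, 4 or 10 members, or 11.8%, 5.88% and 14.7%, where 5.79%, 2.7% and 7.76% of all genes passed. At a mean of at least 5 FPKM 18.2% of members and 15.2% of all genes passed, and with the atrial covariate AI506816 alone passed, among 10 genes in all. The median difference of the members was 0.06 and that of all genes 0.00. Of the 7 lower, 3 had a group mean under 1 FPKM there, and of the 7 higher Gm9057 had a WT mean under 1 FPKM, so 28.6% of these calls were under the minimum in a compared group, against 9.18% of the calls over all genes. Counting either comparison, 23 members passed and 45 passed in neither. Since both comparisons use the same WT libraries, the 9 members that passed in both (AI506816, Prkag2os1, Gm43566, Rint1, Gnai1, Fam185a, Klhl7, Galnt11 and Gm9057) are given by their own values above.

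Between CD36KO and the libraries labelled CD36CKO, limma called 0 of the 68 members, where 4.53% of all tested genes passed. At an unadjusted p under 0.05 there were 9 members, or 13.2%, against 21.9% of all genes. In the alternative fits 0 to 6 members passed, the most with library weights and without WT 3 (8.82% of members each, against 15.9% and 12% of all genes). The main fit pools the spread of all groups, and the median SD over tested genes was 0.21 in WT, 0.11 in CD36KO and 0.14 in CD36CKO. When only both groups compared were fitted, 5 members passed (7.35%, against 11.2% of all genes). The members nearest to the threshold were Tomm7 (0.59, SE 0.14, adjusted p = 0.0504) and 1700096K18Rik (0.54, SE 0.14, adjusted p = 0.0559), both higher in CD36KO. AI506816 differed by 0.20 (95% interval -0.10 to 0.50), Prkag2os1 by -0.26 (adjusted p = 0.447) and Gnai1 by -0.12 (95% interval -0.39 to 0.16). Cd36 itself, which is no member, differed by -1.46 (SE 0.14, adjusted p = 0.00804).

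Just outside the window, Steap4, a metalloreductase gene 10.02 Mb from Cd36, rose in both comparisons (0.91, adjusted p = 0.00765, and 1.09, adjusted p = 0.00325), while Sri just inside passed in neither. On the other side Insig1, a regulator of cholesterol synthesis at 10.24 Mb, did not pass (-0.36 and 0.16), while Paxip1 just inside passed in CD36KO. At the limit on level, ENSMUSG00000120936 lay just inside at 1.06 FPKM and Sema3d just outside at 0.930.

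Partners of the members outside the stretch were counted by list. Of all tested genes 12.5% passed in CD36KO (5.81% higher) and 12.7% in the libraries labelled CD36CKO. In a list of 7 to 9 genes, 1 call (11.1% to 14.3%) is near that share. Of 13 tested genes that license and fire replication origins with Dbf4 and Orc5, 6 rose in CD36KO and none fell, among them the helicase subunits Mcm4 (1.08, adjusted p = 0.00224) and Mcm2 (0.98, adjusted p = 0.00283), with a median of 0.35. In the libraries labelled CD36CKO, where Dbf4 was low, Cdc45 fell (-0.52, adjusted p = 0.0462) and 12 others did not pass, with a median of 0.00. Between CD36KO and those libraries 6 of the 13 were higher in CD36KO (46.2%, where 4.53% of all tested genes passed). Of 9 receptors and coreceptors of semaphorins, Nrp2 rose in CD36KO (0.67, adjusted p = 0.0210) and Nrp1 fell in the libraries labelled CD36CKO (-0.60, adjusted p = 0.0245).

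Of the 8 other G protein alpha subunits, Gnaq rose (0.51) and Gnao1 fell (-0.65) in CD36KO, and none passed in the libraries labelled CD36CKO. Of 8 nitric oxide genes 1 fell in CD36KO and 3 in the libraries labelled CD36CKO, with Nosip, a binding partner of the synthase, in both (-0.49 and -0.48). None of the 6 other AMP kinase subunits passed in either comparison. Of 7 partners of Kmt2c, Rbbp5 rose in the libraries labelled CD36CKO (0.48, adjusted p = 0.0215). Of 7 calcium channel subunits Cacna2d2 fell in CD36KO (-0.91, adjusted p = 0.0311), and of 2 genes of hepatocyte growth factor activation and reception Plau rose there (0.52, adjusted p = 0.0232). The 3 other class 3 semaphorins passed in neither comparison.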

How the data were processed

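RNA sequencing of 9 whole-heart libraries was used. The authors deposited FPKM values per gene with identifier, position and length, per the file headers. The submitters' processing notes name CASAVA, HISAT, HISAT2 and TopHat2. Counter, build and use of strand were not given in the sources used here. FPKM times gene length gave whole reads in 100% of values within 0.05 reads. FPKM is relative, so a transcript class that takes more reads lowers the rest. The mitochondrial share, given above, was higher in every library outside WT. A count of 0 allows up to 3 reads, or 0.128 to 0.192 FPKM for a gene of 1 kb.

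Differences were tested two-sided with limma 3.58.1 (R 4.3.3) on log2(FPKM + 1) for all genes with a mean of at least 1 FPKM, in a single fit of all 9 libraries (6 residual and 3.68 prior degrees of freedom, trend on level) with Benjamini-Hochberg adjustment at 0.05. Log2 differences on this scale understate low genes. The fit was tested on simulated data. Promoter windows came from RefSeq (GRCm38.p6). Members named were the 5 nearest to Cd36 on each side, the 8 with the largest change past the threshold in each direction and comparison, a list of channel, transporter, chromatin and metabolic genes, and those at the limits of the rule. The members and lists were chosen with earlier results of these data known. The alternatives are given in the closing section.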

Additional observations from a re-analysis of the deposited data

How the results depend on the processing

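Each count was recomputed in 20 alternative fits, 9 of them leaving out 1 library. Without any 1 library the members higher in CD36KO numbered 3 to 17 (12 in the full fit) and those lower 3 to 12 (6), while the libraries labelled CD36CKO gave 1 to 15 higher (7) and 3 to 11 lower (7), and CD36KO against them 0 to 3 either way (0). Counts follow in the order CD36KO higher and lower, then CD36CKO higher and lower. Testing all genes with no filter gave 3, 3, 3 and 3 (8.82% of members in each, against 2.44% and 2.47% of all genes). A mean of at least 5 FPKM gave 4, 2, 2 and 4 (33 members tested, 18.2% past the threshold in each comparison, against 15.7% and 15.2% of all genes). Library weights gave 22, 20, 14 and 13 (61.8% and 39.7% of members, against 47.6% and 39.4% of all genes), with WT 1 weighted at 7.78 and WT 3 at 0.176. Leaving out both libraries with Y-linked expression gave 2, 2, 4 and 2 (5.88% and 8.82% of members, against 1.64% and 3.38% of all genes). The atrial covariate, chosen after seeing the data, gave 0, 0, 0 and 1. Fitting only the 2 groups compared gave 3 higher and 3 lower in the libraries labelled CD36CKO (8.82% of members, against 4.13% of all genes). Removing mitochondrial and haemoglobin genes gave 14 higher there, with 27.9% of members and 16.6% of all genes past the threshold in either direction. That removal moved the median of all genes to 0.10, 0.22 and -0.11 in the 3 comparisons. Between CD36KO and the libraries labelled CD36CKO, the members called higher and lower were 1 and 0 with a pseudocount of 0.1, 1 and 0 at 5 FPKM, 0 and 1 without mitochondrial and haemoglobin genes, 2 and 1 with quantile normalization, 3 and 2 with only both groups, and 4 and 2 with library weights. Abcb8, at 0.01 in CD36KO, was called lower with library weights (-0.24) and without WT 3, in a range of -0.30 to 0.19 over the fits that leave out 1 library. The cause of these changes was not tested.

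The share of members past the threshold exceeded that of all genes in 19 of 20 alternatives in CD36KO (with the atrial covariate both were 0) and in 20 of 20 in the libraries labelled CD36CKO, though these fits reuse the same libraries. With library weights the shares were 39.7% and 39.4% in the latter. Between CD36KO and the libraries labelled CD36CKO the share of members exceeded that of all genes in 0 of 20. With a replicate block 9 members were higher and 6 lower in CD36KO (22.1%, against 8.23% of all genes). In those labelled CD36CKO the block gave 6 and 6 (17.6%, against 7.89% of all genes). Same-numbered libraries of different groups correlated at -0.43 to 0.14 and differently numbered ones at -0.29 to 0.35. These are deviations from means of 3 libraries, so they cannot decide whether the numbers pair libraries, and the labels do not say. Of the 18 calls in CD36KO 5 held without each library in turn, and of the 14 in the libraries labelled CD36CKO 4 did. Members under 10 reads in a library, such as Prkag2os1 and Gm9057, are limited by depth.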
